A study of Mus musculus with 21 samples.

Results

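Innate sensors of nucleic acids and microbial patterns were followed as 10 listed genes out of 24391 genes counted. They are the RNA helicases Ddx58, Dhx58 and Ifih1, the adaptor Mavs, the kinase Eif2ak2, the Z-form nucleic acid sensor Zbp1, the toll-like receptors Tlr2, Tlr3 and Tlr4, and the adaptor Myd88. The list was set by gene symbol, but with earlier results of these data known. All 10 symbols were present in each of the 21 libraries. RNA sequencing had been performed on brain, liver and skin of newborn C57BL/6 mice, with 2 knock-in (KI) mice and 5 wild-type (WT) mice, and 1 library per mouse and tissue. The KI mice were heterozygous for H595D in Jak1, a receptor-associated tyrosine kinase of cytokine signalling, and also carried the silent changes I596I and Y597Y (Jak1 H595D/+;I596I/+;Y597Y/+). The WT mice carried none of the 3 changes, so H595D and the silent changes cannot be told apart in these libraries. The KI line was kept through a mosaic male, and the labels give neither litter nor sex.

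RIG-I-like receptors are cytosolic helicases that bind viral or misplaced RNA. RIG-I (Ddx58) and MDA5 (Ifih1) pass the signal to MAVS on the mitochondrial surface, LGP2 (Dhx58) tunes them, and the outcome is the production of type I interferon. PKR (Eif2ak2) halts translation when it binds double-stranded RNA, and ZBP1 binds Z-form RNA or DNA and can start RIPK3- and MLKL-dependent cell death. Toll-like receptors sample the cell surface and endosomes: TLR2 for lipoproteins, TLR4 for lipopolysaccharide and TLR3 for double-stranded RNA. TLR2 and TLR4 signal through MYD88, whereas TLR3 uses the adaptor TRIF. Several of these genes are themselves induced by interferon, whose receptors signal through JAK1.

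Promoter windows of 7 of the 10 genes were found among the RefSeq windows (build GRCm38.p6, 250 bases before to 50 bases after the annotated start), the exceptions being Dhx58, Tlr4 and Zbp1. Both strands were searched for the core of the interferon-stimulated response element (GAAA, 2 free bases, GAAA), for a STAT site (TTC, 3 free bases, GAA) and for an NF-κB site (GGGA, 2 free bases, TTCC). The following stretches of 30 bases, written 5′ to 3′ in the direction of the gene, are shown because they hold the matches, which are in capitals, and because several of these genes are known interferon targets. All of them lie on the minus strand.
Ddx58, chr4:40239804-40239833: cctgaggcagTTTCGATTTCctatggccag
Ifih1, chr2:62646206-62646235: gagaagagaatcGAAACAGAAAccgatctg
Eif2ak2, chr17:78882535-78882564: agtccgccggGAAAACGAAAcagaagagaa
Eif2ak2, chr17:78882731-78882760: ctgcagagctTTCCCAGAAtggaagccagg
Myd88, chr9:119340042-119340071: gcggagcTTCTCGGAAAGCGAAAgaaggag
Tlr3, chr8:45410572-45410601: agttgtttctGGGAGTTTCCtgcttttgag

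The interferon-stimulated core occurred in the windows of Ddx58, where it reads in the reverse orientation, and of Ifih1, Eif2ak2 and Myd88. These are 4 of 7 windows, and 3.444% of all 32841 windows held that core. The STAT site occurred in 2 of 7 windows, those of Eif2ak2 and Myd88, against 8.298% of all windows. In Myd88 the STAT site overlaps the interferon-stimulated core. The NF-κB site occurred in 1 of 7 windows, that of Tlr3, against 1.468% of all windows. A match describes letters in a window and says nothing of binding. The windows of Mavs and Tlr2 held none of the 3 motifs.

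The genes themselves lie, in the mm9 build used for the counts, as follows. The helicases and PKR are Ddx58 at chr4:40150806-40186861, Ifih1 at chr2:62433850-62484312, Dhx58 at chr11:100556018-100565585 and Eif2ak2 at chr17:79251904-79281913. Zbp1 lies at chr2:173032113-173044424, and the adaptors are Mavs at chr2:131059799-131073761 and Myd88 at chr9:119245052-119250529. The receptors are Tlr2 at chr3:83640195-83645689, Tlr3 at chr8:46481019-46495962 and Tlr4 at chr4:66488618-66591318. In the GENCODE vM1 annotation of that build, Dhx58 shares up to 141 exon bases with a gene on the other strand, Eif2ak2 up to 174 and Myd88 up to 67. The sources used here do not say whether strand was used in counting. The count files set ambiguous reads aside in a summary line of their own. Whether reads in those stretches were counted for these genes or set aside is not known.

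The libraries held 26549326 to 38388133 counts on genes. Levels are given as CPM, the count of a gene relative to the size of its library, with TMM scaling over all 21 libraries. The tissue labels were checked against marker genes. The summed CPM of 6 neuronal markers was 6541 to 8515 in brain and at most 112 elsewhere, and that of 6 hepatocyte markers was 220909 to 276246 in liver. Hepatocyte markers also reached 752 and 827 CPM in the KI brains and from 28.9 to 2032 CPM in the WT brains, highest in WT brain 5. The summed CPM of 6 keratinocyte markers ranged from 803 to 14949 over the skin libraries, at 12268 and 803 CPM in the KI skins. Per the methods, RNA was less intact in skin than in liver and in samples that the methods name as blood. No value was named for brain. The part of RNA integrity in the skin values was not tested. Jak1, the edited gene, stood at 161 and 156 CPM in KI brain against 90.9 to 151 in WT brain, at 272 and 290 against 207 to 246 in liver and at 184 and 182 against 149 to 173 in skin, and was not called in any tissue. Total Jak1 counts do not distinguish the alleles.

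In WT mice the sensors were lowest in brain. Of the 10 genes, 9 had the order liver, skin, brain by mean CPM, and Tlr2 had the order skin, liver, brain. The level of Zbp1 was 7.87 ± 0.952 CPM in liver, 3.65 ± 1.35 in skin and 0.231 ± 0.0211 in brain (mean ± SD, n = 5). Ifih1 stood at 58.3 CPM in liver, 12.4 in skin and 2.62 in brain. Between WT libraries of 1 tissue the coefficient of variation of the 10 genes had a median of 18.5% in brain, 12.7% in liver and 21.6% in skin.

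All 10 genes were higher in WT liver than in WT brain and all 10 were higher in WT skin than in WT brain by the edgeR quasi-likelihood test with Benjamini-Hochberg adjustment over all genes, at an adjusted p under 0.1. In these comparisons 83.4% and 79.4% of all 17071 genes tested were called in either direction, so being called was the usual outcome. The log2 difference between liver and brain was largest for Zbp1 at 5.07 and smallest for Tlr3 at 1.59. Between skin and brain it ranged from 1.46 for Tlr3 to 3.96 for Zbp1. Between skin and liver, 7 of the 10 were called, where 72.3% of all genes were, and all 7 were lower in skin. Ifih1 had a log2 difference of -2.23, Eif2ak2 -1.62, Ddx58 -1.46, Mavs -1.25, Tlr4 -1.19, Dhx58 -1.15 and Zbp1 -1.11. Tlr2 (0.27), Tlr3 (-0.14) and Myd88 (-0.01) were not called. These differences depend on the scaling of the tissues against each other. With library totals alone, the median gene moved by 0.709 on the log2 scale in skin against liver. Tlr3 and Myd88 then turned to 0.57 and 0.70 and were called, Tlr2 was called at 0.99, and Zbp1, at -0.41, was no longer called.

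Because reads accumulate with transcript length, levels of different genes were compared only as CPM per kb of merged exon. The lengths merge all exons of a gene in GENCODE vM1, which may differ from the annotation used for counting. Mavs was highest in WT liver at 21.4 CPM per kb and in WT brain at 2.12. Myd88 was highest in WT skin at 12.3. The lowest gene per kb was Zbp1 in brain (0.0655), Tlr3 in liver (1.59) and Tlr4 in skin (1.01). Most neighbours in these orders had overlapping ranges over the 5 mice. The ranges were apart between Mavs and Eif2ak2, between Ddx58 and Dhx58 and between Dhx58 and Tlr2 in liver, between Mavs and Tlr2 in skin and between Tlr2 and Tlr4 in brain.

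**Figure D1:**
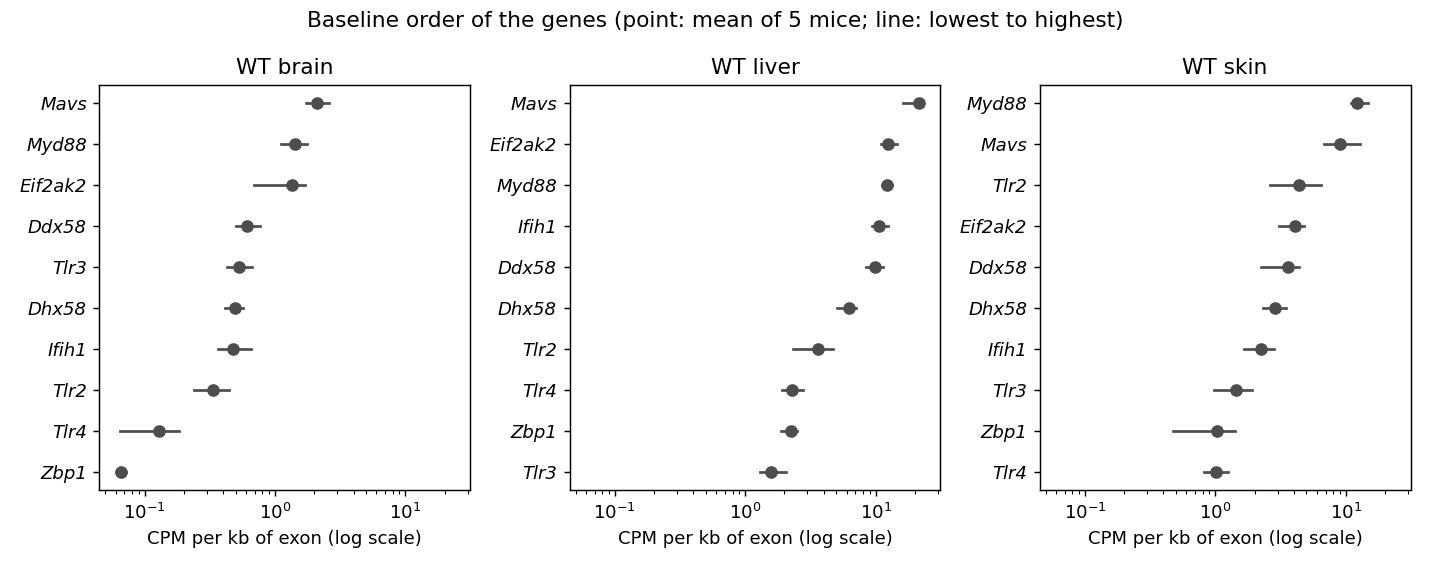
Level of each gene in the 3 WT tissues, as CPM per kb of merged exon on a log axis. Points are means of 5 libraries and lines run from the lowest to the highest library. Zbp1 in brain, at 0.0655, was the lowest value, and Mavs in liver, at 21.4, the highest.

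The main question was whether the KI allele changed these genes within a tissue. Each tissue was tested on its own 7 libraries by the edgeR quasi-likelihood test, and a gene was called at a Benjamini-Hochberg adjusted p under 0.1 over all genes tested. In liver 4 of the 10 genes, Zbp1, Tlr2, Dhx58 and Myd88, rose in KI mice and none fell. The background in liver was 3.89% of 14966 genes called higher and 1.68% called lower. In brain 0 of 10 were called, where 0% of 16322 genes were called higher and 0% lower. In skin 0 of 10 were called, where 0.0247% of 16163 genes were called higher and 0% lower. Counted without adjustment, at p under 0.05, the number was 1 of 10 in brain (1732 of all genes) and 4 of 10 in skin (738 of all genes).

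The median log2 fold change of the 10 genes was 0.32 in brain, 0.23 in liver and 0.41 in skin, against -0.02, -0.02 and -0.03 over all genes tested. The log2 fold change was above 0 for 9 of the 10 in brain, 8 in liver and 10 in skin. Over all genes tested it was above 0 for 7700 of 16322 in brain, 7001 of 14966 in liver and 6997 of 16163 in skin. The 10 genes also vary together, so they are not 10 separate results. Both KI libraries lay above all 5 WT libraries for 3 genes in brain (17.7% of all genes), 4 in liver (12.1%) and 4 in skin (5.47%). None of the 10 had both KI libraries below all WT libraries. Over all genes tested, 1828 of 16322 did in brain, 1907 of 14966 in liver and 621 of 16163 in skin.

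**Figure D2:**
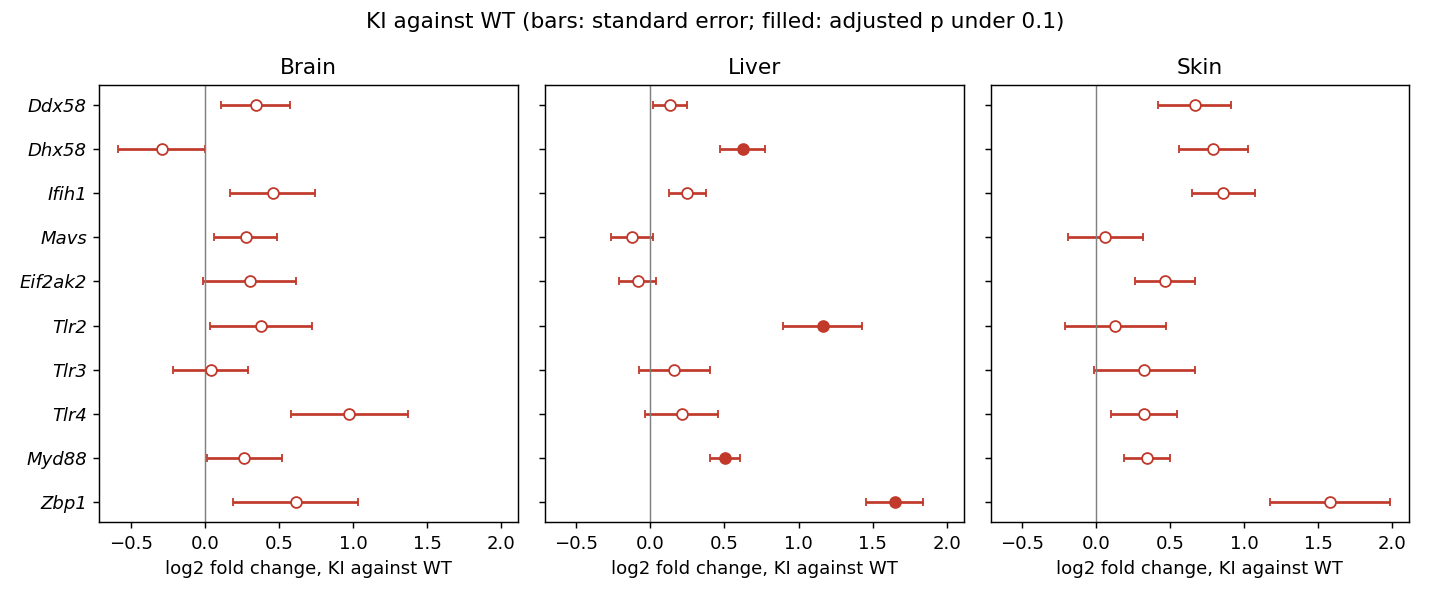
Log2 fold change of KI against WT in each tissue, with bars of 1 standard error and filled points for an adjusted p under 0.1. Filled points are Dhx58, Tlr2, Myd88 and Zbp1 in liver, and the open points of Ddx58, Dhx58, Ifih1 and Zbp1 in skin lie between 0.67 and 1.58.

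Among the RNA helicases, Dhx58 was called in liver. Its level there was 29.2 and 37.0 CPM in the KI mice and 17.5, 24.3, 24.4, 22.0 and 20.5 CPM in the WT mice, without overlap. It rose by a log2 fold change of 0.62 (SE 0.153, edgeR adjusted p = 0.0695). The call of Dhx58 was lost without KI mouse 1 (adjusted p = 0.126), without KI mouse 2 (0.474), without WT mouse 1 (0.101) and without WT mouse 5 (0.102), all by edgeR. It was also lost with all 21 libraries in 1 fit (edgeR adjusted p = 0.265) and with Y-linked expression as a covariate (0.134). RIG-I and MDA5 themselves were not called in liver. Ddx58 had 72.1 and 79.8 CPM against 59.7 to 79.9, and Ifih1 had 62.5 and 74.7 CPM against 52.0 to 68.6, both with overlapping groups.

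In skin all 3 helicases had both KI libraries above every WT library. Ifih1 stood at 20.9 and 24.9 CPM in KI skin and at 10.8, 12.96, 15.4, 9.12 and 13.9 CPM in WT skin. Dhx58 stood at 13.4 and 21.1 CPM in KI skin and at 7.99, 9.05, 11.5, 8.65 and 11.9 CPM in WT skin. Ddx58 stood at 34.9 and 47.4 CPM in KI skin and at 24.7, 26.7, 30.9, 15.9 and 29.2 CPM in WT skin. The KI values were highest in mouse 2 for each of the 3 genes. The log2 fold changes were 0.86 (SE 0.211) for Ifih1, 0.79 (SE 0.232) for Dhx58 and 0.67 (SE 0.247) for Ddx58. The edgeR adjusted p was 0.699, 0.818 and 0.999, so none was called. By the DESeq2 Wald test Ifih1 was called in skin (adjusted p = 0.0787), together with Zbp1, where 0.634% of 15135 genes were called higher.

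In brain the helicases overlapped between genotypes. Ddx58 had 5.24 and 6.37 CPM in KI brain against 3.52 to 5.38 in WT brain, Ifih1 had 3.30 and 4.31 against 2.03 to 3.64, and Dhx58 had 1.27 and 1.68 against 1.42 to 1.97. The log2 fold changes were 0.34, 0.46 and -0.29, with an edgeR adjusted p from 0.630 to 0.757.

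The adaptor Mavs was not called in any tissue. In liver it stood at 65.8 and 64.3 CPM in KI mice and at 54.6 to 77.9 CPM in WT mice (log2 fold change -0.13), and in skin at 29.0 and 34.8 CPM against 22.6 to 43.0 (0.06). In brain both KI libraries, at 9.43 and 8.72 CPM, lay above the WT libraries, at 7.01, 7.86, 8.64, 5.81 and 6.06 CPM. The log2 fold change in brain was 0.28 (edgeR adjusted p = 0.690). With the levels scaled within brain alone, the groups of Mavs overlapped, since scaling over all 21 libraries put the KI brains 0.0845 higher relative to WT on the log2 scale. Scaled in this way, 2 of the 10 genes had both KI brains above all WT brains, as did 11.2% of all 16322 genes tested, in place of 3 and 17.7%.

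The kinase Eif2ak2 was likewise not called in any tissue. It had 54.6 and 63.9 CPM in KI liver against 56.7 to 74.8 in WT liver, and 8.36 and 9.58 CPM in KI brain against 3.55 to 8.61 in WT brain. In KI skin it had 24.1 and 34.1 CPM against 15.7 to 24.4. The log2 fold changes were -0.09, 0.30 and 0.47, and the groups overlapped in each tissue.

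Zbp1 had the largest log2 fold change of the 10 genes in liver and in skin. In liver it stood at 18.7 and 30.2 CPM in the KI mice and at 8.61, 8.75, 8.28, 6.66 and 7.06 CPM in the WT mice. The lowest KI value was above every WT value. The means were 24.5 ± 8.13 CPM (SD, n = 2) and 7.87 ± 0.952 CPM (SD, n = 5). The fitted difference was 3.14-fold, a log2 fold change of 1.65 (SE 0.193, edgeR adjusted p = 0.00485). Zbp1 in liver was called under each of the 14 alternative settings and left-out mice, with log2 fold changes from 1.27 to 1.97 and adjusted p up to 0.0975.

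In skin Zbp1 stood at 8.10 and 14.1 CPM in the KI mice and at 4.42, 2.86, 4.36, 1.68 and 4.95 CPM in the WT mice, again without overlap. The log2 fold change was 1.58 (SE 0.407), a value close to that in liver, but the edgeR adjusted p was 0.747. The DESeq2 Wald test gave an adjusted p of 0.0699. In brain only 8 to 19 reads per library fell on Zbp1. Its level there was 0.455 and 0.297 CPM in KI mice and 0.214 to 0.255 CPM in WT mice, and the log2 fold change was 0.61 (SE 0.420, edgeR adjusted p = 0.659).

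**Figure D3:**
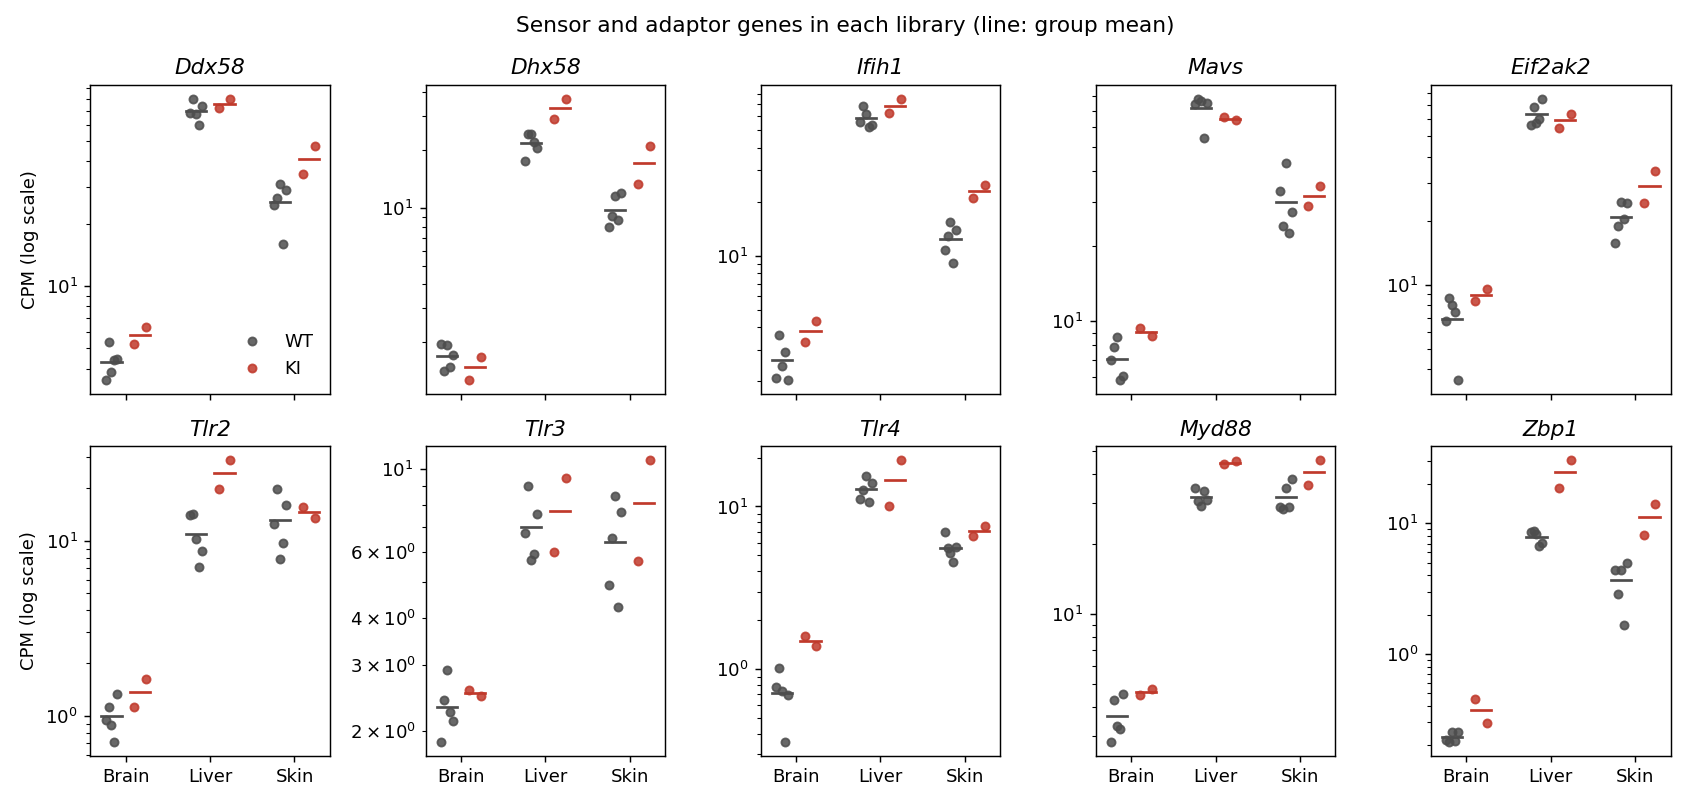
CPM of each of the 10 genes in every library, on log axes, with WT in grey, KI in red and lines at group means. In liver the KI points of Zbp1, Tlr2, Dhx58 and Myd88 lie above all WT points, and in skin those of Ddx58, Dhx58, Ifih1 and Zbp1 do.

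Of the toll-like receptors, Tlr2 was called in liver. It stood at 19.7 and 28.6 CPM in the KI mice and at 14.0, 14.2, 10.2, 7.06 and 8.75 CPM in the WT mice, so that WT mice 1 and 2 were nearest to the KI range. The log2 fold change was 1.16 (SE 0.267, edgeR adjusted p = 0.0567). The call of Tlr2 was lost without KI mouse 1 (edgeR adjusted p = 0.126), KI mouse 2 (0.433) or WT mouse 3 (0.104), with all 21 libraries in 1 fit (0.120) and with Y-linked expression as a covariate (0.149). In skin Tlr2 overlapped, at 15.5 and 13.51 CPM in KI mice and 7.85 to 19.5 CPM in WT mice. In brain it was 1.13 and 1.63 CPM against 0.717 to 1.33.

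Tlr4 was not called in any tissue. Its largest log2 fold change was in brain, where it stood at 1.60 and 1.39 CPM in KI mice and at 0.776, 1.02, 0.739, 0.359 and 0.698 CPM in WT mice, without overlap. The log2 fold change in brain was 0.98 (SE 0.393, edgeR adjusted p = 0.437). These levels rest on 15 to 67 reads per brain library. In liver the KI mice had 10.03 and 19.2 CPM, on either side of the WT range of 10.7 to 15.4 CPM, and in skin they had 6.62 and 7.58 CPM against 4.55 to 7.01. Tlr3 overlapped between genotypes in all 3 tissues. It stood at 2.56 and 2.48 CPM in KI brain against 1.87 to 2.91 CPM in WT brain, at 5.99 and 9.47 against 5.71 to 9.01 in liver and at 5.69 and 10.5 against 4.29 to 8.44 in skin. Its log2 fold changes were 0.04 in brain, 0.16 in liver and 0.33 in skin.

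The adaptor Myd88 rose in liver by a smaller but tighter margin. It stood at 44.0 and 45.1 CPM in the KI mice and at 34.6, 30.6, 29.1, 33.8 and 30.8 CPM in the WT mice, without overlap. This was a log2 fold change of 0.50 (SE 0.102, edgeR adjusted p = 0.0368). Without KI mouse 1 or KI mouse 2 it was not called (edgeR adjusted p = 0.175 and 0.276), nor with all 21 libraries in 1 fit (0.254), and under a replicate block the adjusted p was 0.103. In skin it had 35.9 and 45.5 CPM in KI mice against 28.3 to 37.9, and in brain 4.502 and 4.78 against 2.84 to 4.54, both with overlap.

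The 2 KI mice were also compared with each other. KI mouse 2 had the higher level in 9 of the 10 genes in liver, all but Mavs, and in 9 of 10 in skin, all but Tlr2, and in 6 of 10 in brain. The same count over all genes was not made. The library numbers are read here as mouse numbers, which the labels do not state in words. The p-values measure only the spread between these mice, for which the labels name no litters.

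A difference of the KI effect from tissue to tissue was tested in 1 fit of all 21 libraries. That fit had no term for mouse, although the 21 libraries come from 7 mice. Only which libraries share a mouse is not stated in words. None of the 10 genes was called for liver minus brain (2.81% of 18062 genes called), skin minus brain (0%) or skin minus liver (0.0997%). At an unadjusted p under 0.05 stood Dhx58 for liver minus brain (0.81, edgeR adjusted p = 0.226) and skin minus brain (1.02, adjusted p = 0.527), and Tlr2 (-1.0005) and Ifih1 (0.64) for skin minus liver (adjusted p = 0.897 for both). How many of all genes stood under that unadjusted cut was not counted. For Zbp1 the difference of skin minus liver was -0.04 with a standard error of 0.474. That leaves room for a sizeable difference in either direction. A call of Tlr2 in liver and not in skin is therefore not shown to be a difference between the tissues.

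White blood cell markers were higher in KI liver, as were the 4 called genes, while the other 6 of the 10 overlapped between genotypes. Ptprc, the pan-leukocyte marker CD45, was called higher at 120 and 150 CPM in KI liver against 75.6 to 94.5 CPM in WT liver. The summed CPM of 12 macrophage-lineage markers was 2201 and 1987 in KI liver and 1298 to 1639 in WT liver, and 9 of the 12 were called higher. The sum of 10 neutrophil markers was 8498 and 10332 CPM against 5522 to 7121, with 6 called higher, and that of 8 lymphocyte markers was 150 and 160 CPM against 85.6 to 118, with 3 of 7 tested called higher. The ratio of KI to WT means was 1.61 for Ptprc, 1.39, 1.44 and 1.53 for the macrophage, neutrophil and lymphocyte sums, and none of these markers was at 0 throughout the liver libraries of a genotype. Markers of the red cell lineage moved the other way, with a sum of 3312 and 3177 CPM in KI liver against 3749 to 5141 CPM in WT liver, and 1 of 3 tested was called lower. The part of these cells in the rise of Zbp1, Tlr2, Dhx58 and Myd88 was not tested. In whole tissue, more cells of a type and more RNA per cell cannot be told apart.

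In skin, macrophage-lineage markers were 825 and 1131 CPM in KI mice against 571 to 759 CPM in WT mice, and Ptprc was 18.3 and 22.6 CPM against 12.8 to 17.9, with none of these markers called. Neutrophil and lymphocyte sums overlapped in skin. Red cell markers summed to 8.38 and 13.04 CPM in KI skin and lay below the 13.2 to 27.6 CPM of WT skin, with none called. In brain, endothelial markers were 169 and 171 CPM in KI mice against 87.4 to 157 in WT mice, while the leukocyte lists overlapped. Their part in the skin and brain values was not tested. Without WT brain 5, the library with the most hepatocyte marker RNA, 1698 of 16222 genes were called in brain, but still 0 of the 10, the lowest edgeR adjusted p being 0.190 for Tlr4.

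**Figure D4:**
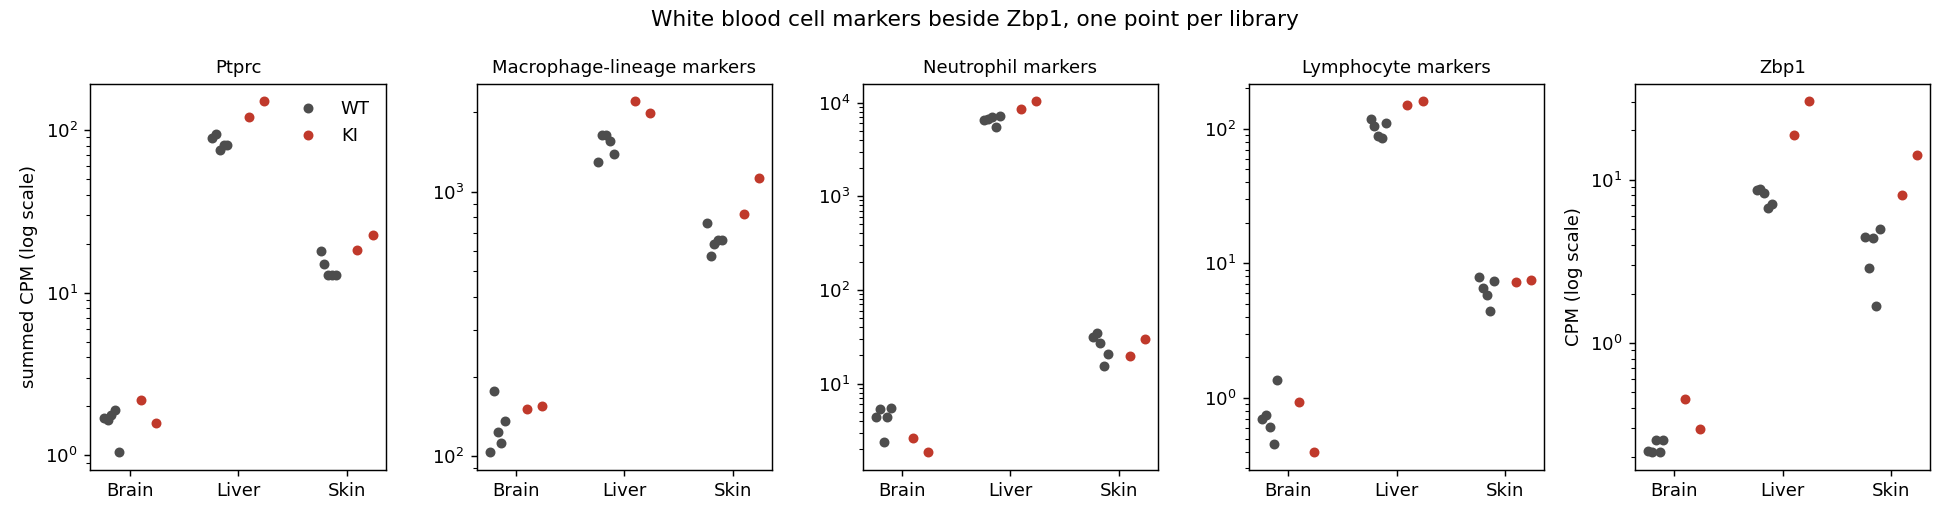
Ptprc and the summed CPM of macrophage-lineage, neutrophil and lymphocyte markers, with Zbp1 at the right, 1 point per library on log axes, WT in grey and KI in red. In liver the KI points lie above the WT points in all 5 panels, and in skin they do so for Ptprc, the macrophage markers and Zbp1.

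The wider pathway was followed in 64 further genes, listed by role. In liver all 64 could be tested and 12 were called higher and 0 lower, beside 3.89% of all genes called higher and 1.68% lower. The median log2 fold change was 0.16, against -0.02 over all genes. The called genes were 5 of 20 sensors, 1 of 5 co-receptors and trafficking factors, 2 of 6 adaptors, the ZBP1 effector Mlkl, 2 of 5 transcription factors and 1 of 11 inhibitors, and none of 12 kinases or 4 ubiquitin ligases.

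The 6 called genes with the largest change in liver began with the myeloid receptors Clec7a and Clec4e. Clec7a (Dectin-1) had 30.9 and 35.8 CPM in KI liver against 11.4 to 17.1 CPM, a log2 fold change of 1.22 (edgeR adjusted p = 0.0101). Clec4e (Mincle) had 10.2 and 14.5 CPM against 4.54 to 8.04 CPM, a log2 fold change of 1.19. The interferon-induced RNA binder Ifit1 had 56.2 and 51.9 CPM against 20.9 to 30.5 CPM, a log2 fold change of 1.13 (edgeR adjusted p = 0.00544). Irf7, the interferon-inducible transcription factor that amplifies interferon production, had 249 and 237 CPM against 92.8 to 138 CPM, a log2 fold change of 1.07 (edgeR adjusted p = 0.00440). Tmem173 (STING), the adaptor of cytosolic DNA sensing, had 22.1 and 27.1 CPM against 11.04 to 13.53 CPM (1.04). The inflammasome sensor Nlrc4 had 6.80 and 5.39 CPM against 2.12 to 3.84 CPM (1.02). For all 6 the groups did not overlap, but they were picked for their change in these same libraries, so this is no separate finding. Of the 64 genes, 22 were higher in each KI liver than in any WT liver, and 3 were lower. Over all genes tested in liver, 12.1% were higher in this way and 1907 of 14966 were lower. Mlkl, which carries out cell death downstream of ZBP1, had 17.7 and 17.9 CPM against 9.59 to 13.6 CPM, a log2 fold change of 0.61 (edgeR adjusted p = 0.0935).

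In skin 63 of the 64 genes could be tested and in brain 60, and 0 were called in either, where 0.0247% of all genes were called in skin and 0% in brain. The lowest p in skin was that of Trim25, the ubiquitin ligase of RIG-I, with 90.9 and 104 CPM in KI skin against 46.5 to 61.0 CPM in WT skin (log2 fold change 0.82, edgeR adjusted p = 0.253). Irf7 followed with 45.2 and 73.7 CPM against 16.0 to 28.5 CPM (1.46), and Ifit1 with 16.8 and 20.8 CPM against 3.15 to 8.33 CPM (1.63). In brain the lowest p belonged to Ly96, the TLR4 partner MD-2, with 0.455 and 0.669 CPM in KI brain against 0.813 to 1.89 CPM in WT brain (-1.39, edgeR adjusted p = 0.363). Irf7 (0.91) and Trim25 (0.62) came next in brain. Stat2 and Irf9, transcription factors that carry the interferon signal, were not called in any tissue.

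**Figure D5:**
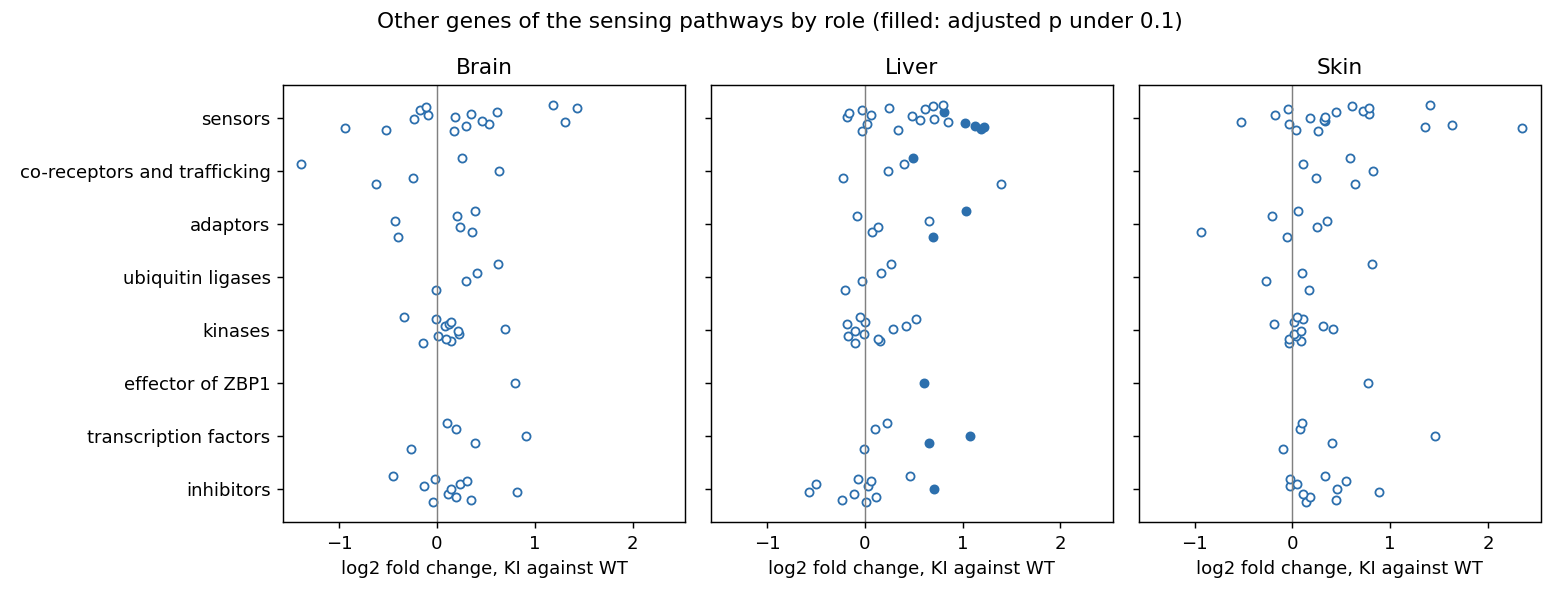
Log2 fold change of KI against WT for the 64 further pathway genes by role and tissue, 1 point per gene tested and filled points for an adjusted p under 0.1. The 12 filled points are all in liver and all above 0, and 5 of them are sensors.

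Across the 21 libraries, after each tissue's mean was removed, the genes varied together to unequal degrees. These correlations describe libraries that share genotype, scaling and mice. Over the 45 pairs of the 10 genes the median Pearson r was 0.50, and Ddx58 and Ifih1 were the closest pair at 0.91. With genotype means also removed the median was 0.35 and the pair Ddx58 and Ifih1 kept 0.82. Of 15639 other genes, those most like Ddx58 were Usp18 (0.896), Oasl2 (0.884) and Parp14 (0.875). For Ifih1 they were Rsad2 (0.909), Phf11d (0.891) and Parp14 (0.891), and for Zbp1 they included Samhd1 (0.909) and Slfn4 (0.890). Tlr2 was most like Itga2b (0.820), Vegfc (0.812) and Ccdc36 (0.808), and Tlr4 was most like Tor4a (0.862), Tnfsf10 (0.798) and Nfkb2 (0.793).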

How the data were processed

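Brain, liver and skin RNA of 2 KI and 5 WT newborn mice had been sequenced, with 1 library for each tissue of each mouse, grouped by the library titles. Per the study's methods and processing notes, the authors aligned reads to mm9 with TopHat2 and counted them with HTSeq. They deposited raw counts per gene symbol and 5 summary lines, which took 30.4% to 38.1% of a file's total and were left out. Between 80.5% and 87.6% of uniquely placed reads were assigned to genes. The smallest library had 26549326 counts.

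Counts were filtered with filterByExpr, scaled by TMM and fitted in edgeR 4.0.16 (R 4.3.3) for its quasi-likelihood test. The threshold was 0.1 on the p adjusted by Benjamini-Hochberg over all genes tested. KI and WT were compared within each tissue, WT tissues in 1 fit of 15 libraries, and tissue differences of the KI effect in 1 fit of 21. The fits across tissues had no term for mouse. The tests were checked on simulated data, with changes seeded only in genes of higher level. Changes as small as most KI changes of the listed genes were not simulated. Nor were changes in genes as low as Zbp1 and Tlr4 in brain. Exon lengths came from GENCODE vM1 (mm9) and promoters from RefSeq.

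Always named were the 10 members, Jak1, Stat2 and Irf9. Of 64 pathway genes, at most 6 called per tissue with the largest change were named, or the 3 with the lowest p where none was called. For 5 members the 3 most similar genes with a mean of at least 1 CPM were named. Mlkl was added once its values were known. Items withheld for evaluation are left out. The members and lists were chosen with earlier results of these data known. Alternatives were DESeq2 1.42.0 (size factors, Wald test), no filter, adjusted p under 0.05, all libraries in 1 fit, a replicate block, Y-linked expression as a covariate and leaving out each mouse. Unscaled totals and within-tissue scaling of levels were added after seeing the data. Replicate numbers were not taken to pair KI with WT mice. No 2 replicate libraries agreed within sampling noise.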

Additional observations from a re-analysis of the deposited data

Results flagged for a closer look

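Among the 30 groups of 5 WT libraries (10 genes in 3 tissues), 2 had a library far from the rest by Dixon's test at the 95% level, where chance alone flags about 1 in 20. WT liver 4 had Mavs at 54.6 CPM, with the other WT livers at 74.2 to 77.9 CPM. WT brain 5 had Eif2ak2 at 3.55 CPM, with the other WT brains at 6.72 to 8.61 CPM. WT brain 5 also had the most hepatocyte marker RNA of the brain libraries, at 2032 CPM. Without WT brain 5 the log2 fold change of Eif2ak2 in brain was 0.16 in place of 0.30, and it was not called in either case.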

How the results depend on the processing

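Low read numbers limit Zbp1 and Tlr4 in brain, which rest on 8 to 19 and 15 to 67 reads per library. Both KI brains had more counts on genes (33557982 and 35606374) than any WT brain (26549326 to 33534256). The number of the 10 genes called in liver was 4 and became 2 at an adjusted p under 0.05 (383 of 14966 genes called), 1 with all 21 libraries in 1 fit (242 of 18062) and 2 with Y-linked expression as a covariate (379). Dhx58 and Tlr2 were lost in all 3 of these settings and Myd88 with all 21 libraries. Leaving out 1 mouse gave 1 to 4, the lowest without KI mouse 1 (232 of 15383 genes called) or KI mouse 2 (56 of 15335). In brain 1 gene, Tlr4, was called with all 21 libraries in 1 fit (log2 fold change 1.06, adjusted p = 0.0862, 614 of 18062 genes called), and leaving out 1 mouse gave 0 each time. In skin 2 genes were called by the DESeq2 Wald test (107 of 15135 genes) and 1, Zbp1, with all 21 libraries in 1 fit (adjusted p = 0.0719, 23 of 18062), and leaving out 1 mouse gave 0 each time. The cause of these changes was not tested. The adjusted p values here are those of edgeR and DESeq2.

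Same-numbered KI and WT libraries correlated with r from -0.0887 to 0.180, over 0.1 in 1 of 6 pairs, so the number was not treated as a pairing. With it as a replicate block 3 genes were called in liver (817 of 14966), Myd88 falling out at 0.47, and Tlr3 in liver and Tlr2 in skin turned to -0.022 and -0.14. With the Y-linked covariate Tlr3 in brain, Tlr4 in liver and Mavs in skin turned to -0.026, -0.028 and -0.069. None of these was called in any setting. Leaving out 1 mouse, log2 fold changes crossed 0 for Tlr3 in brain (-0.0078 to 0.14), Eif2ak2 (-0.20 to 0.034), Tlr3 (-0.20 to 0.47) and Tlr4 (-0.32 to 0.62) in liver, Tlr2 (-0.0071 to 0.34), Mavs (-0.070 to 0.23) and Tlr3 (-0.18 to 0.74) in skin, and Myd88 in WT skin against WT liver (-0.081 to 0.056). With unscaled totals Tlr3 and Myd88 turned to 0.57 and 0.70 in WT skin against WT liver. The calls of all 10 genes in WT liver and WT skin against WT brain, and the absence of calls between tissues, held under every alternative run.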
